A study of Mus musculus with 31 samples.

Results

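Chromatin remodellers and histone methylation enzymes were followed in mouse brain cortex through mRNA, ribosome footprints and footprints per mRNA. The members were the gene symbols that begin with Kmt, Kdm, Chd and a digit, Arid and a digit, Smarc or Setd and whose mean in the 4 wild-type mRNA libraries was 1 CPM (counts scaled to the library total) or more. By this rule 66 of the 20436 symbols in the count tables were members, and 67 symbols matched the names alone. The members comprised 18 Kdm, 13 Smarc, 11 Setd, 10 Chd, 9 Arid and 5 Kmt genes. Just inside the limit lay Kdm4d at 1.63 CPM and Arid3a at 3.70 CPM, and the one matching symbol outside it was Arid3c at 0.175 CPM.

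The study sequenced cortical mRNA (polyA-selected, 16 libraries) and ribosome-protected footprints (15 libraries) from mice aged 29 to 34 days, to ask how the translational state differs between genotypes. The genotypes were wild type (WT), Fmr1-deficient (FXS, for fragile X syndrome), Rps6kb1-deficient (S6K1) and deficient in both (DKO). The mRNA groups held 4 libraries each, and the footprint groups held 4 WT, 5 FXS, 3 S6K1 and 3 DKO libraries. Every mRNA batch, numbered 5 to 8 in the labels, held each genotype once, whereas the footprint batches 1 to 4 were unbalanced: batch 1 held 1 DKO and 1 S6K1 library, and no WT library. Strain, sex, the alleles behind each deficiency, and whether mRNA and footprint libraries came from the same animals are not given in the sources used here, nor is it said that libraries of a group are separate animals. The p-values therefore measure the spread between these libraries, which may be technical.

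Histone methyltransferases of the KMT and SETD families write methyl marks on histone lysines, and KDM demethylases remove them. CHD proteins and the SWI/SNF and ISWI complexes use ATP to move or evict nucleosomes. Some of the ARID and SMARC genes, not all, encode subunits of these complexes. Mutations in many of these genes cause neurodevelopmental disorders, and the product of Fmr1, the RNA-binding protein FMRP, is known to bind many long brain mRNAs, among them mRNAs of chromatin regulators. Rps6kb1 encodes S6K1, a kinase that acts below mTORC1 on the translation machinery.

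Total counts (in units of 1e6) ran from 12.1 to 17.3 per mRNA library and from 16.6 to 34.9 per footprint library. Fmr1 mRNA was 55.65 to 77.64 CPM in WT and 65.76 to 82.56 CPM in S6K1, against 13.05 to 22.06 CPM in FXS and 10.62 to 21.57 CPM in DKO libraries. Fmr1 footprints were 105.2 to 138.1 CPM in WT and 104.0 to 159.3 CPM in S6K1 libraries, against 7.03 to 8.68 CPM in FXS and 8.04 to 12.8 CPM in DKO libraries, so the labels and the targeted gene matched. Rps6kb1 footprints were 26.1 to 31.7 CPM in WT and 29.4 to 36.4 CPM in FXS libraries, against 7.62 to 12.8 CPM in S6K1 and 11.3 to 11.97 CPM in DKO libraries. Rps6kb1 mRNA overlapped more, at 39.47 to 55.45 CPM in WT, 40.98 to 53.94 CPM in FXS, 28.17 to 43.68 CPM in S6K1 and 28.53 to 39.56 CPM in DKO libraries. Some libraries stood apart. In mRNA batch 5, 10.1 to 17.98% of genes lay more than 0.5 (log2) from their median over libraries, against 0.50 to 2.26% in the other mRNA batches. In footprint batch 1 this share was 28.2% in the DKO and 25.6% in the S6K1 library, against 0.957 to 6.78% elsewhere. In bulk tissue, fewer cells of a type and less RNA per cell cannot be told apart.

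The members lay in long genes and had promoters rich in CpG. Their median gene span was 56.07 kb (66 of 66 matched), against 25.79 kb over 12994 of the 13654 genes tested for footprints per mRNA. RefSeq promoter windows (build GRCm38.p6) were matched for 50 member genes, with 65 windows. In the 250 bases before the start, the median number of CpG dinucleotides was 21 in member windows and 6 in all 32851 windows. The GC box GGGCGG was present on either strand in 66.2% of member windows and 32.7% of all windows, and the letters TATAAA in 4.62% and 12.4%. CCAAT was present in 36.9% and 33.8%, the ETS core CCGGAAG in 13.8% and 6.91% and the E box CACGTG in 3.08% and 6.02%. The stretches upstream of 3 members whose mRNA differed in DKO cortex are printed here from RefSeq, 5′ to 3′ on the strand of the gene. Capitals mark matches to the GC box or to CCAAT on either strand. They run up to the annotated gene start, for Chd5 at chr4:152338451-152338645 (plus strand), for Kdm5c at chrX:152233027-152233197 (plus strand) and for Kdm3a at chr6:71632991-71633117 (minus strand).
Chd5: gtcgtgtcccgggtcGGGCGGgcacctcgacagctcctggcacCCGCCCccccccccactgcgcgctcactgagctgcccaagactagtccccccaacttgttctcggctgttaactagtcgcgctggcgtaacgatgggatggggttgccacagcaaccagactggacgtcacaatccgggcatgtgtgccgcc
Kdm5c: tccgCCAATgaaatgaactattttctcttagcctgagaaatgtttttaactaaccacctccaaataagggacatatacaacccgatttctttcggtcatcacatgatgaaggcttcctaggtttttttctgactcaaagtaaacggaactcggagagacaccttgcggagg
Kdm3a: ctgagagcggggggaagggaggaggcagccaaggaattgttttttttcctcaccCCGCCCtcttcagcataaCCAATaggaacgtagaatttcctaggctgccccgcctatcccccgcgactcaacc
The Chd5 stretch held 16 CpG and the GC box on both strands, the Kdm5c stretch 6 CpG and CCAAT, and the Kdm3a stretch 6 CpG with both motifs. A match is a description of the letters and not evidence of a bound factor.

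In WT cortex the median footprint level per mRNA was lower for the Kmt and Setd families than for the other families, with a wide spread within each. The ratio of footprint to mRNA CPM is called translation efficiency (TE) here and is given on the log2 scale. Its median over all genes tested was -0.35, with quartiles at -1.18 and 0.38. The median of the 5 Kmt genes was -1.51 and that of the 11 Setd genes -1.36, both below the lower quartile of all genes. The 18 Kdm, 9 Arid and 13 Smarc genes had medians of 0.35, 0.45 and 0.46, and the 10 Chd genes -0.003. Of the 66 members, 14 lay below the lower quartile of all genes and 25 above the upper quartile.

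Chd3, an ATPase of the NuRD complex, had the lowest TE of all members in WT cortex, -2.77 ± 0.13 (SE over libraries), at the 3.35 percentile of all genes. Setd8, the older symbol of the histone H4 methyltransferase Kmt5a, followed at -2.65, and the SWI/SNF subunit gene Smarcd3 at -2.35. Among the Kmt2 and Setd1 genes, TE was -1.63 for Kmt2e, -1.54 for Kmt2a, -1.51 for Kmt2b and -1.36 for Setd1a. It was -0.20 for Setd1b, -0.55 ± 0.37 for Kmt2c and 0.49 ± 0.42 for Kmt2d (SE over libraries). The Kmt2c and Kmt2d values include WT footprint replicate 1, at 129.7 and 293 CPM, against at most 58.9 and 126 CPM in the other WT libraries. At the other end were Arid5b at 1.93 ± 0.14, the demethylase gene Kdm7a at 1.74, the methyltransferase gene Setd7 at 1.42 and the demethylase gene Kdm4b at 1.42. The Kmt and Setd medians were the lowest of the 6 families in every genotype, while the order of the others varied: the Kmt median was -1.27 in FXS, -1.37 in S6K1 and -1.16 in DKO cortex, and the Setd median -1.49, -1.43 and -1.46. In WT, FXS and S6K1 cortex 3 of 5 Kmt genes lay below the lower quartile of all genes, and in DKO cortex 2 did. These ratios are of group mean CPM, without a batch term, and footprint batch 1 held only DKO and S6K1 libraries. Differences of DKO or S6K1 from the other genotypes in these ratios cannot be told apart from batch.

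**Figure D1:**
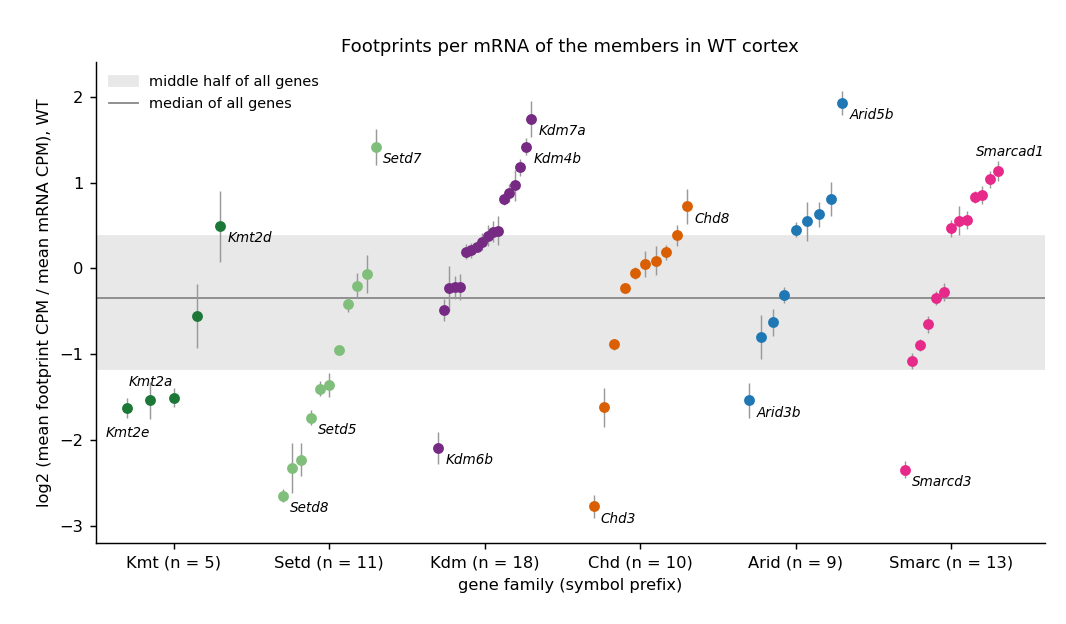
Each point is one member, placed by its log2 ratio of footprint to mRNA CPM in WT cortex and grouped by family. The Kmt and Setd medians of -1.51 and -1.36 lie below those of the Kdm, Arid and Smarc genes, which lie between 0.35 and 0.46.

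Loss of both genes was accompanied by mRNA differences in 4 members. With edgeR's quasi-likelihood test over all 14215 genes, batch in the model and a Benjamini-Hochberg adjusted p under 0.05 as the limit, mRNA of Chd5, Kdm5c and Kdm4b was higher and mRNA of Kdm3a was lower in DKO than in WT cortex. The 4 calls were 6.06% of the members, and 5.23% of all genes tested were called, 3.17% higher and 2.06% lower. At an unadjusted p under 0.05, 22 members (33.3%) differed, 11 higher and 11 lower, and so did 22.3% of all genes. The share of called members was thus close to that of all genes. The median change over the members was -0.05 (log2), and over all genes -0.003.

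Chd5 encodes a nucleosome remodeller of the NuRD type that is found mainly in neurons. Its mRNA was 186, 164, 194.5 and 188 CPM in the WT libraries of batches 5 to 8, and 238, 192, 233 and 248 CPM in the DKO libraries. All DKO libraries were above the WT library of their batch, although the lowest DKO value lay below the highest WT value. The log2 change was 0.31 ± 0.07 (SE), with an edgeR adjusted p of 0.0119. Chd5 mRNA was also 218, 222, 232 and 223 CPM in FXS and 210.0, 213, 208 and 223 CPM in S6K1 libraries, all above every WT library. Those log2 changes, 0.29 in FXS and 0.22 in S6K1, did not pass the edgeR limit (adjusted p = 0.0651 and 0.517).

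Kdm5c, an X-linked gene for a demethylase of H3K4, was at 54.2, 55.6, 57.7 and 63.5 CPM in WT mRNA and at 70.0, 67.0, 71.4 and 74.4 CPM in DKO mRNA. Every DKO library was above every WT library, and the log2 change was 0.29 ± 0.07 (edgeR adjusted p = 0.0226). Kdm5c mRNA was 62.5 to 74.1 CPM in FXS and 58.1 to 74.6 CPM in S6K1 libraries. Kdm4b, whose product demethylates H3K9, was at 52.2, 47.6, 47.7 and 55.8 CPM in WT and at 60.3, 60.7, 57.9 and 62.9 CPM in DKO mRNA, again without overlap. Its log2 change was 0.25 ± 0.07 (edgeR adjusted p = 0.0411). Kdm4b mRNA was 52.9 to 59.3 CPM in FXS and 55.7 to 62.15 CPM in S6K1 libraries. Kdm3a, another H3K9 demethylase gene, was the one member called lower in mRNA: it was at 60.04, 53.9, 57.4 and 58.3 CPM in WT and at 50.2, 41.3, 45.6 and 41.4 CPM in DKO mRNA. The groups did not overlap, and the log2 change was -0.37 ± 0.08 (edgeR adjusted p = 0.0120). Kdm3a mRNA was 45.3 to 64.1 CPM in FXS and 46.8 to 71.1 CPM in S6K1 libraries. The direction held in 4 of 4 batches for each of the 4 genes. The test used the same libraries and batches, so this is no separate support.

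The mRNA calls lay close to the limit. Kdm4b lost its call in 7 of the 8 fits that left out one library, Kdm5c in 6, and Chd5 and Kdm3a in 2 each. Over all 15 alternatives the log2 changes were 0.23 to 0.29 for Kdm4b, 0.26 to 0.31 for Kdm5c, 0.28 to 0.37 for Chd5 and -0.43 to -0.32 for Kdm3a. Without the batch term no member was called in mRNA, and without mRNA batch 5, 2 were, since Kdm5c and Kdm4b lost their calls. Leaving out single mRNA libraries gave 0 calls without WT replicate 2, 1 without WT replicate 3 or DKO replicate 3, and 2 without WT replicate 1 or DKO replicate 2. Without WT replicate 2 all 4 genes missed the limit (edgeR adjusted p of 0.0685 for Chd5, 0.0758 for Kdm3a, 0.0913 for Kdm5c and 0.159 for Kdm4b).

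**Figure D2:**
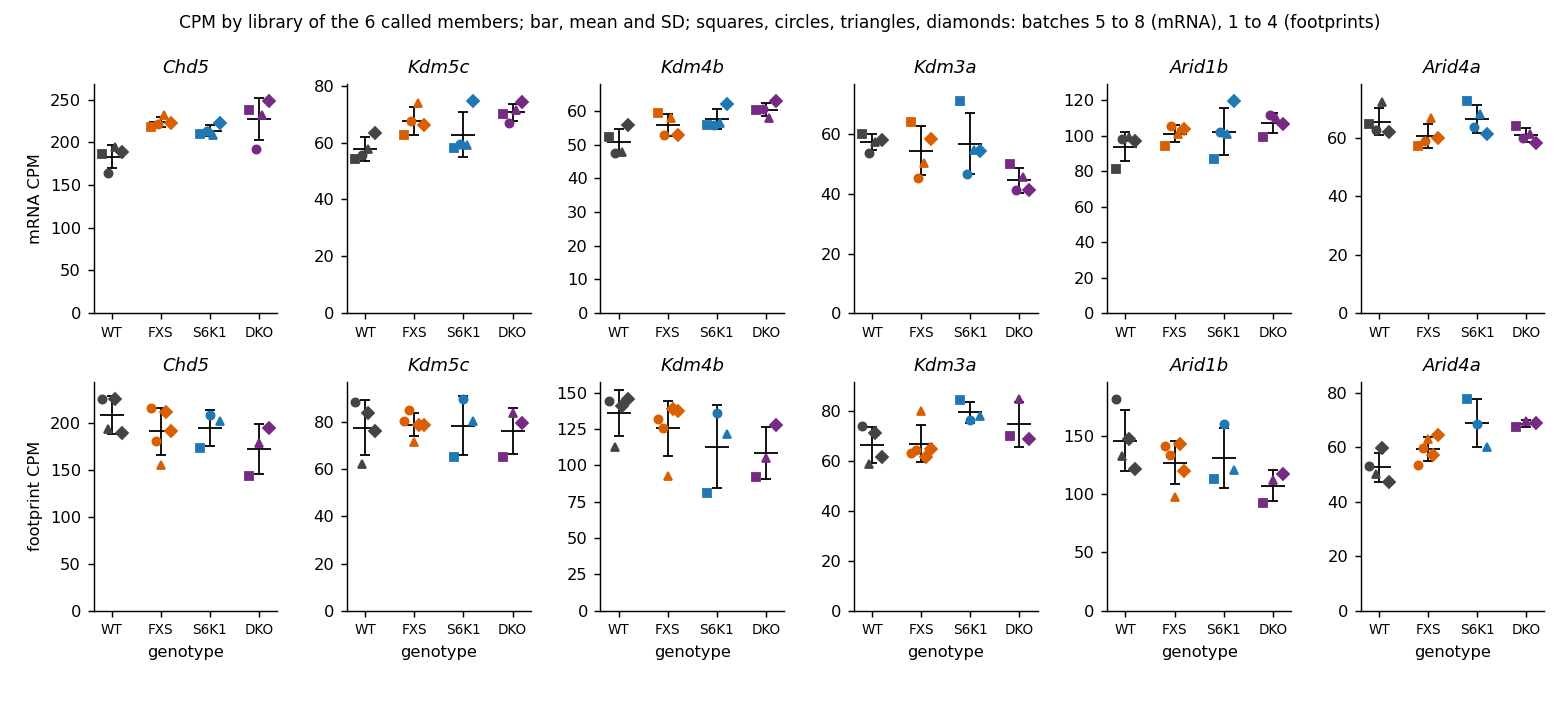
Each point is one library's CPM for the 6 members called in DKO against WT cortex, in mRNA or in footprints per mRNA, with symbols for the batch and bars for the group mean and SD. For Kdm5c, Kdm4b and Arid1b all DKO mRNA libraries lie above all WT libraries, and for Kdm3a all lie below.

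In footprints no member passed the limit. In DKO against WT cortex, edgeR called 0 members in footprints, as did DESeq2 and limma voom, while 0.366% of all 13953 genes tested were called by edgeR. At an unadjusted p under 0.05, 11 members (16.7%) differed, 9 of them higher, against 17.1% of all genes. The smallest adjusted p was that of Arid4a, whose product binds the retinoblastoma protein. Arid4a footprints were 53.25, 50.4, 59.8 and 47.2 CPM in the WT and 67.4, 69.8 and 69.1 CPM in the DKO libraries. The groups did not overlap, and the log2 change of 0.35 had an edgeR adjusted p of 0.147. In S6K1 against WT cortex the log2 change of Arid4a footprints was 0.37 (edgeR adjusted p = 0.329). Smarca5, the ISWI ATPase gene, was at 98.8, 95.6, 98.8 and 97.8 CPM in WT and at 153.6, 126 and 112 CPM in DKO footprints, without overlap, and the DKO library of batch 1 was the highest. Its log2 change of 0.22 had an edgeR adjusted p of 0.281.

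Footprints per mRNA differed for 4 members in DKO cortex. Arid4a and Kdm3a were higher, and Chd5 and Arid1b were lower. The 4 calls were 6.06% of the members, against 4.85% of the 13654 genes tested, of which 1.85% were higher and 3.00% lower. At an unadjusted p under 0.05, 16 members (24.2%) differed, 12 of them higher, against 24.9% of all genes. The 4 called members had TE changes of the same sign in each single deficiency, none past the edgeR limit. For Arid4a, Kdm3a, Chd5 and Arid1b the log2 changes against WT were 0.28, 0.08, -0.44 and -0.36 in FXS. In S6K1 they were 0.34, 0.24, -0.18 and -0.18. These comparisons share the WT libraries. Since TE contains the mRNA values, a TE change of Chd5 or Kdm3a is no separate support for its mRNA change.

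For Chd5, footprints were 226, 193.5, 226 and 189.8 CPM in WT and 143.5, 179 and 195 CPM in DKO libraries, which overlapped. The lowest DKO value came from batch 1, which held no WT library. While its mRNA was higher, its footprints were not, and the log2 TE change was -0.45 ± 0.12 (edgeR adjusted p = 0.0342). Kdm3a had 74.0, 58.9, 71.2 and 61.4 footprint CPM in WT and 70.2, 84.9 and 68.7 CPM in DKO libraries, which also overlapped. With mRNA lower and footprints not lower, its log2 TE change was 0.50 ± 0.14 (edgeR adjusted p = 0.0402).

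Arid1b, which encodes a defining subunit of one form of the SWI/SNF complex, was at 81.4, 98.1, 99.1 and 97.0 CPM in WT mRNA and at 99.2, 112, 110.1 and 107 CPM in DKO mRNA. Its footprints were 181.5, 132, 147 and 121 CPM in WT and 92.3, 112 and 117 CPM in DKO libraries. Every DKO library was above every WT library in mRNA and below every one in footprints, where the lowest was again from batch 1. The highest WT footprint value, 181.5 CPM, came from replicate 1, the only WT library of batch 2. The log2 TE change was -0.45 ± 0.13 (edgeR adjusted p = 0.0411), with the mRNA change of 0.19 (adjusted p = 0.0939) and the footprint change of -0.25 (adjusted p = 0.263) each short of the edgeR limit. Arid4a mRNA was 64.8, 62.7, 72.2 and 62.03 CPM in WT and 64.0, 59.7, 61.3 and 58.3 CPM in DKO libraries, which overlapped. Its log2 TE change was 0.45 ± 0.12 (edgeR adjusted p = 0.0359). In the footprint batches 3 and 4, which held both genotypes, footprints of Arid1b were lower in DKO in 2 of 2 batches and those of Arid4a higher in 2 of 2. These libraries also entered the test, so the direction by batch is no separate support.

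Most libraries, left out alone, also ended a TE call: that of Arid1b was lost in 12 of 15 such fits, that of Kdm3a in 11, and those of Chd5 and Arid4a in 8 each. The log2 changes over all 23 alternatives were -0.64 to -0.37 for Arid1b, 0.36 to 0.66 for Kdm3a, -0.59 to -0.37 for Chd5 and 0.39 to 0.55 for Arid4a. No member was called without the batch term, 2 without mRNA batch 5, 5 without footprint batch 1 (a setting added after the data were seen) and 8 without WT footprint replicate 1. Of the libraries left out one at a time, 6 took the count to 0, namely mRNA DKO 3, WT 2 and WT 3, and footprint DKO 2, DKO 3 and WT 2. The count was 1 without mRNA DKO 2, 2 without footprint WT 4 and 7 without footprint WT 3. Without footprint batch 1 the calls of Chd5 and Arid1b were lost (Arid1b edgeR adjusted p = 0.0620), and Kdm4b was among the members that gained one (0.0419).

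**Figure D3:**
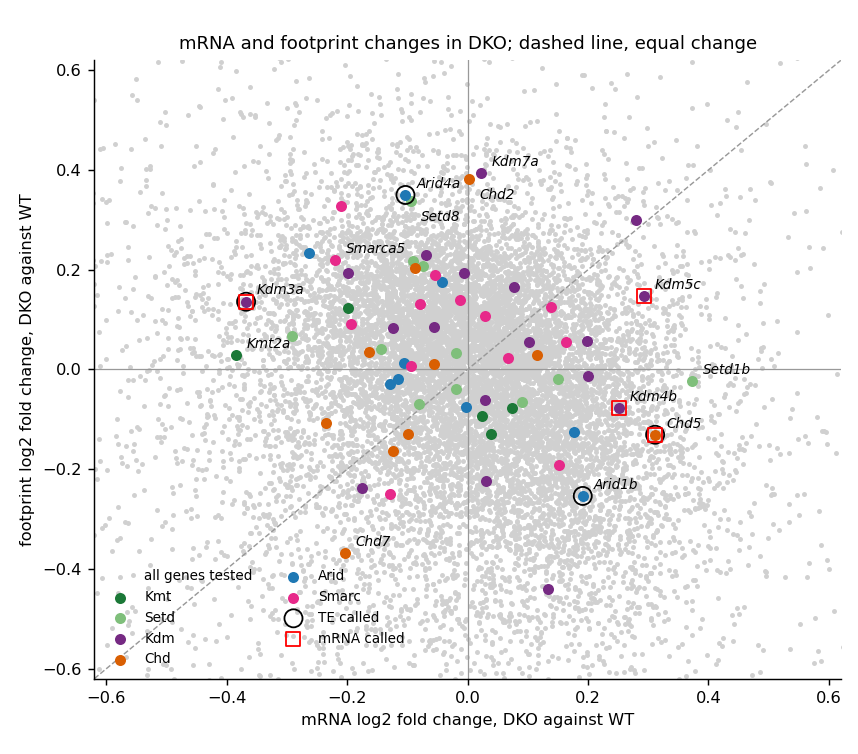
Each member's log2 change in mRNA (x axis) is plotted against its log2 change in footprints (y axis), DKO against WT, over all 13654 genes in grey, of which 954 lie outside the axes. The signs were opposite for 43 of 66 members (65.2%) and for 57.4% of all genes, with Chd5 on the right below zero and Kdm3a on the left above zero.

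Opposite signs of the mRNA and footprint changes in DKO cortex were common among the members and among all genes. They were seen for 43 of 66 members (65.2%) and for 57.4% of all genes. The Pearson correlation across the 66 members was -0.17, a description across genes that share libraries. In FXS against WT cortex the signs were opposite for 62.1% of members and 54.2% of all genes. In S6K1 against WT cortex they were opposite for 30.3% of members and 47.4% of all genes. By family, the median log2 mRNA change in DKO cortex was -0.10 for Arid, -0.09 for Chd, -0.07 for Setd, -0.05 for Smarc, 0.02 for Kmt and 0.03 for Kdm genes. The median footprint change was 0.11 for Smarc, 0.08 for Kdm, 0.03 for Setd, -0.02 for Arid, -0.05 for Chd and -0.08 for Kmt genes. The summed mRNA of the members was 6755 ± 205 CPM in WT and 6835 ± 115 CPM in DKO libraries (SD, n = 4 each). Summed footprints were 5900 ± 693 CPM (n = 4) and 5788 ± 184 CPM (n = 3), so the WT and DKO sums differed by less than the spread between libraries. The mRNA sum was 7040 ± 158 CPM in FXS and 6995 ± 312 CPM in S6K1 libraries (n = 4 each). The footprint sums there were 5704 ± 163 CPM (n = 5) and 6010 ± 225 CPM (n = 3). The sums were not tested.

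Of the Kmt2 and Setd1 genes, which include the H3K4 methyltransferases, none passed the limit in DKO cortex. Setd1b and Kmt2a came near it in mRNA. Setd1b mRNA was 44.7, 35.0, 37.4 and 38.7 CPM in WT and 58.4, 47.0, 56.6 and 40.0 CPM in DKO libraries, a log2 change of 0.37 (edgeR adjusted p = 0.0504). Kmt2a mRNA was 129, 122, 145 and 148 CPM in WT and 126, 100.2, 110.0 and 81.2 CPM in DKO libraries, a log2 change of -0.38 (edgeR adjusted p = 0.0786). In both genes the groups overlapped by one library. Kmt2c mRNA had a log2 change of -0.20 (edgeR adjusted p = 0.170) and was lower in 4 of 4 batches, though the groups overlapped. The log2 mRNA changes of Kmt2b, Kmt2d, Kmt2e and Setd1a were 0.07, 0.04, 0.02 and -0.08.

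One WT footprint library was far above the others for 2 H3K4 methyltransferase genes and Chd8. Kmt2d, which methylates H3K4 at enhancers, had 293 CPM in WT replicate 1 and 94.8, 126 and 119 CPM in the other WT libraries. Kmt2c, its close relative, had 129.7 CPM there and 52.9, 58.9 and 52.7 CPM in the others, and Chd8, a remodeller gene mutated in autism, had 299 against 183.5, 189 and 176 CPM. This library was high for all 3 genes, and the other 3 WT libraries lay close together. This library was also the only WT library of batch 2. The FXS and S6K1 libraries of that batch had 138.5, 200.4 and 206.3 CPM of Kmt2d, above every library of the other batches. They had 79.75, 89.3 and 107.1 CPM of Kmt2c and 234.0, 195.4 and 247.3 CPM of Chd8. The parts of batch and of this one library were not tested. Without it, the log2 footprint change of Kmt2d in FXS against WT moved from -0.34 to -0.13, that of Kmt2c from -0.11 to 0.12 and that of Chd8 from -0.10 to 0.06. The same library also had more footprints of genes typical of striatum, chosen after the values were seen: Penk was at 198 CPM against 41.6 to 67.1 CPM in the other WT libraries, Drd1 at 22.4 against 5.12 to 8.40 CPM, and Adcy5 at 72.8 against 15.7 to 23.8 CPM. Their part in the values of Kmt2d, Kmt2c and Chd8 was not tested.

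**Figure D4:**
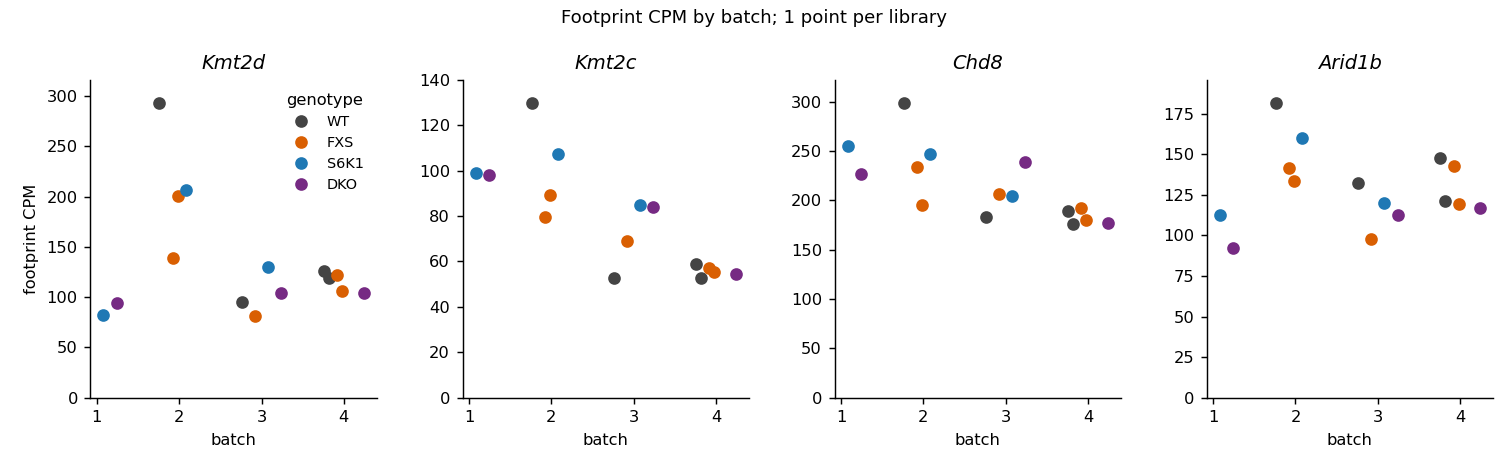
Footprint CPM of Kmt2d, Kmt2c, Chd8 and Arid1b is plotted by batch, with genotypes in colour. WT replicate 1, in batch 2, is the highest WT library for all 4 genes, at 293 CPM for Kmt2d.

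Methyltransferases of other lysines did not pass the limit. Setd8 footprints were 10.3, 11.5, 11.5 and 9.77 CPM in WT and 11.2, 13.7 and 14.4 CPM in DKO libraries. The groups overlapped, and the log2 changes were 0.34 in footprints and 0.43 in TE (edgeR adjusted p = 0.208 and 0.0883). The log2 changes in mRNA and footprints were -0.02 and -0.04 for the H3K36 methyltransferase gene Setd2, -0.02 and 0.03 for Setd5, and -0.07 and 0.21 for the H3K9 methyltransferase gene Setdb1, none past the limit.

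Among the demethylases, Kdm7a mRNA followed batch more than genotype. It was 30.8 to 42.1 CPM in the 4 libraries of batch 5 and 17.02 to 22.9 CPM in the other 12. Kdm7a footprints were 74.9, 65.3, 81.4 and 72.6 CPM in WT and 115.5, 113.5 and 87.6 CPM in DKO libraries, without overlap, but the log2 change of 0.39 did not pass (edgeR adjusted p = 0.202). Kdm6a, an H3K27 demethylase gene, had log2 footprint changes of -0.24 in DKO and -0.37 in S6K1 cortex (edgeR adjusted p = 0.276 and 0.324). The log2 mRNA changes of Kdm1a, Kdm2a and Kdm5b in DKO cortex were -0.06, -0.01 and -0.07. Kdm5d, a member on the Y chromosome, was found in every library, at 15.95 to 41.52 CPM in mRNA and 18.79 to 34.6 CPM in footprints.

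None of the remaining remodeller genes named here passed the limit, although some of their changes were as large as those of called members. Chd7 footprints were low, at 5.34 to 9.90 CPM in WT and 3.89 to 6.95 CPM in FXS libraries, with a log2 change of -0.49 in FXS (edgeR adjusted p = 0.322). Chd2, a remodeller gene linked to epilepsy, had a log2 footprint change of 0.38 in DKO that did not pass the limit (edgeR adjusted p = 0.153). The SWI/SNF ATPase gene Smarca4 had log2 changes of 0.15 in mRNA, -0.19 in footprints and -0.35 in TE (edgeR adjusted p for TE = 0.0804). The subunit genes Smarcb1, Smarcc1, Smarcc2 and Smarcd1 had log2 changes in mRNA of 0.07, 0.03, 0.16 and 0.14, and in footprints of 0.02, 0.11, 0.05 and 0.13.

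With Fmr1 alone lost, no member passed the limit in edgeR in any of the 3 measures. In mRNA, 9 members (13.6%) differed at an unadjusted p under 0.05, 8 of them higher, against 12.7% of all genes, of which 0.155% were called. DESeq2 called 1 member and limma voom 0. In footprints, 5 members (7.58%) differed at an unadjusted p under 0.05, against 9.87% of all genes with 0.165% called, and DESeq2 and limma voom called 0 members. In TE, 13 members (19.7%) differed at an unadjusted p under 0.05, 11 of them lower, against 13.4% of all genes with 0.0952% called, and DESeq2 called 1 and limma voom 0. The smallest edgeR adjusted p in TE was 0.0947, for Chd5 at a log2 change of -0.44.

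With Rps6kb1 alone lost, edgeR, DESeq2 and limma voom called 0 members in mRNA, footprints and TE. At an unadjusted p under 0.05, 6 members (9.09%) differed in mRNA, all higher, against 7.37% of all genes with 0.0211% called. In footprints 6 members (9.09%) differed at that limit, against 8.74% of all genes with 0.00717% called, and in TE 4 members (6.06%), against 7.51% with 0.0293% called.

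The DKO was also compared with each single deficiency, using the DKO libraries again, so these values are set side by side with the above and are not separate evidence. Against S6K1, 0 members were called in mRNA by edgeR (0.387% of all genes), with Kdm3a nearest at -0.34 (adjusted p = 0.0504). DESeq2 called 1 and limma voom 0. Of the members, 13 (19.7%) differed at an unadjusted p under 0.05, 12 of them lower, against 14.8% of all genes. In footprints and TE against S6K1, all 3 tools called 0 members, and edgeR called 0.00717% and 0.00732% of all genes. There 1 member (1.52%) and 6 members (9.09%) had an unadjusted p under 0.05, against 8.67% and 14.6% of all genes.

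Against FXS, all 3 tools called 0 members in each measure, where edgeR called 0.0281% of all genes in mRNA, 0.0143% in footprints and 0.0146% in TE. In mRNA, 7 members (10.6%) differed at an unadjusted p under 0.05, all lower, against 9.81% of all genes. In footprints 2 members (3.03%) differed at that limit, against 6.19%, and in TE 8 members (12.1%), all higher, against 8.36%.

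Whether the change in DKO cortex departed from the sum of the 2 single changes was tested as an interaction. All 3 tools called 0 members, and edgeR called 0% of all genes in mRNA, 0% in footprints and 0% in TE. At an unadjusted p under 0.05, 5 members differed in mRNA (7.58%, all lower) against 3.50% of all genes, 0 in footprints against 3.07%, and 1 in TE (1.52%) against 4.14%. The median interaction over the members was -0.09 in mRNA, 0.004 in footprints and 0.13 in TE, positive for 13, 36 and 51 of 66. Over all genes the medians were 0.002, 0.008 and 0.01, with 50.6%, 51.8% and 51.7% positive. Since TE contains the mRNA values with their sign turned, the TE shift is not separate from the mRNA shift.

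The effect of Fmr1 loss was estimated once with Rps6kb1 present (FXS against WT) and once without it (DKO against S6K1), from libraries that do not overlap but enter one model with shared batch terms. The sign was the same for 46 of 66 members in footprints (69.7%, against 64.6% of all genes), for 38 in mRNA (57.6% against 66.7%) and for 41 in TE (62.1% against 66.3%). The Pearson correlations across members were 0.52, 0.25 and 0.46, given as a description across genes. The effect of Rps6kb1 loss had the same sign with and without Fmr1 for 53 of 66 members in footprints (80.3% against 65.5% of all genes), for 34 in mRNA (51.5% against 60.9%) and for 39 in TE (59.1% against 61.0%).

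**Figure D5:**
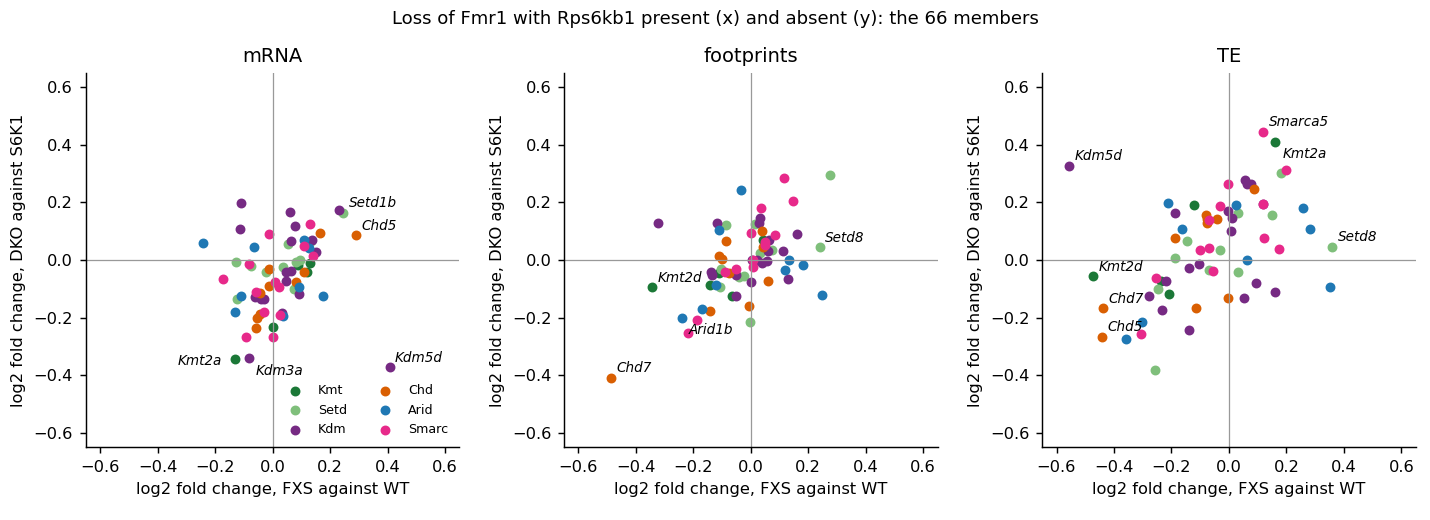
Each point is a member, with its log2 change on loss of Fmr1 where Rps6kb1 is present (x axis, FXS against WT) and where it is lost (y axis, DKO against S6K1), in mRNA, footprints and TE. Points in the upper right and lower left have the same sign, which held for 46 of 66 members in footprints.

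Partners of the members outside the name rule were counted from lists of complexes, beside the 5.23% of all genes called in mRNA and 4.85% in TE, and the 49.4% and 47.9% of all genes with a log2 change above zero. Of 11 genes of PRC2, the H3K27 methyltransferase complex, Suz12 fell in DKO mRNA by 0.38 in log2 (edgeR adjusted p = 0.0244), and 10 of the 11 had a log2 change below zero with a median of -0.14. In TE, 3 of 10 were called higher, namely Eed by 0.53, Suz12 by 0.51 and Mtf2 by 0.45. The log2 TE change was above zero for 7 of the 10, with a median of 0.19. Among 18 other SWI/SNF genes, Bcl7a and Ss18l1 were called higher in mRNA (0.35 and 0.45). In TE Phf10 was called higher by 0.37 and Ss18l1 lower by 0.53. Of 12 genes of the COMPASS complexes, in which several Kmt2 enzymes work, Hcfc1 was called higher in mRNA by 0.32. Of 15 other remodeller genes Rsf1 was called higher in TE by 0.44, and of 6 other demethylase genes Jmjd6 by 0.50. None of 10 NuRD genes and none of 16 other histone methyltransferase genes passed the edgeR limit in DKO against WT cortex in any measure. In FXS against WT cortex none of these lists held a called gene.

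Markers of other cell types were read beside these results. Summed footprints of 8 oligodendrocyte markers were 2757 to 3993 CPM in WT, 1758 to 2661 CPM in FXS, 2581 to 2791 CPM in S6K1 and 1860 to 2616 CPM in DKO libraries. In DKO against WT cortex, edgeR called 3 of the 8 lower in footprints and 6 of the 8 in TE. The shares of all genes called there were 0.366% and 4.85%. In FXS 3 of the 8 were called lower in footprints and 1 in TE (0.165% and 0.0952% of all genes called). In S6K1 none was called in footprints and 1 was called lower in TE (0.00717% and 0.0293%). Called or not, none of the 8 had a footprint log2 change above zero against WT. The medians were -0.70 in DKO, -0.60 in FXS and -0.47 in S6K1. Of all genes, 48.0%, 49.7% and 45.8% had a footprint log2 change above zero. In mRNA 0 of the 8 were called in DKO, against 5.23% of all genes, and the sums were 1878 to 3012 CPM in WT and 1798 to 3265 CPM in DKO libraries. Among 6 neuron markers, Slc17a7 rose in DKO mRNA by 0.33 and fell in TE by 0.63. Of the 6, 4 had a DKO log2 change above zero in mRNA and 2 in TE, with medians of 0.11 and -0.16. No marker of astrocytes (5 genes), microglia (5) or endothelium (4) was called. Of the 4 endothelial markers, 0 had a log2 change above zero in DKO against WT mRNA (median -0.25) or footprints (-0.45). The same held in S6K1 against WT, with medians of -0.34 and -0.47. In FXS against WT, 3 were above zero in mRNA (median 0.10) and 1 in footprints (-0.05). Their summed footprints were low, at 4.84 to 8.88 CPM in WT libraries. The part of these shifts in the values of the members was not tested.

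The authors' own comparisons gave a similar picture in mRNA. In the authors' deposited table for DKO against WT mRNA, 7 of 63 members with an adjusted p were below 0.05, 4 higher and 3 lower, and 9.40% of all genes with one. Besides Chd5 (0.31), Kdm5c (0.29), Kdm4b (0.25) and Kdm3a (-0.37), the authors' deposited table also called Setd1b (0.37), Kmt2a (-0.39) and Arid4b (-0.27), given as log2 fold changes. For FXS against WT mRNA, the authors' deposited table called 1 of 52 members, Chd5 at 0.30 (adjusted p = 0.00360), against 2.72% of all genes. The authors' deposited tables for footprints called 0 members, against 1.18% of all genes in FXS and 2.47% in DKO cortex. Those for TE in the authors' deposited tables also called 0 members, against 0.0167% and 0.725% of all genes.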

How the data were processed

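The authors deposited gene counts of mRNA and footprint libraries, and tables of log2 fold changes with p-values. Per the submitters' processing notes, the tools were cutadapt 2.0, Bowtie2, TopHat2 and RSEM with build mm10. Which tool made which count, and whether strand was used, are not given in the sources used here. Libraries were grouped by the labelled genotype and batch. Counts were scaled by TMM within each assay, filtered by edgeR's default and fitted with edgeR 4.0.16 (R 4.3.3) by quasi-likelihood, with all genotypes and batch in the model. TE was the footprint change minus the mRNA change in one model of 31 libraries. Every p was adjusted over all genes by Benjamini-Hochberg. DESeq2 1.42.0 and limma 3.58.1 were alternatives. The fits were tested on simulated data.

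The batch block comes from the labelled batch. After centring by genotype, libraries of one batch and different genotypes correlated across genes with a median r of 0.271 in mRNA and 0.298 in footprints, against -0.136 and -0.099 between batches. No pair of libraries within a group was a duplicate (smallest chi-square per degree of freedom 4.81 over 24 mRNA pairs and 8.08 over 22 footprint pairs). Pairs across groups were not checked.

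Named members were all called ones (at most 12 per comparison, by smallest adjusted p) and a panel by role. Others were named for an extreme TE, for their chromosome (Kdm5d) or from the authors' tables after their values were seen. Members and lists were chosen with earlier results of these data known.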

Additional observations from a re-analysis of the deposited data

Results flagged for a closer look

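In 27 of 240 groups of 4 or 5 libraries (40 named members, 2 assays), one library lay far from the others by Dixon's criterion, and chance marks about 1 group in 20. All values are CPM. WT footprint replicate 1 was high for Kmt2d (292.9, others at most 125.7), Kmt2c (129.7, at most 58.88), Chd8 (298.6, at most 189.4) and Kdm6a (44.91, at most 35.22). WT footprint replicate 2, in batch 3, was low for Kdm4b (112.5), Kmt2b (24.05) and Smarca1 (66.04). FXS footprint replicate 3, of the same batch, was low for Chd3 (135.9), Kdm4b (92.89) and Setd1a (26.16) and high for Kdm3a (79.86). FXS footprint replicate 2 was high for Arid2 (70.05), and FXS footprint replicate 1 low for Setd8 (9.525).

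In mRNA batch 5, the WT library was low for Arid1b (81.4), and the FXS library was high for Chd7 (22.51), Setd1b (55.21) and Setd2 (141.0). The S6K1 library of that batch was high for Kdm7a (42.06) and Smarcd1 (250.2), and the DKO library for Kdm7a (37.25) and Setdb1 (71.09). In batch 8, the S6K1 library was high for Kdm4b (62.15), Kdm5c (74.57) and Smarcc2 (429.4), and the DKO library high for Chd7 (20.69) and low for Kmt2d (101.0). In batch 6, WT mRNA was high for Kmt2b (94.5).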

How the results depend on the processing

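Counts of called members moved with the processing, while the log2 changes of the called members kept their sign in every alternative. Changes of sign among members that were not called were not counted. In DKO against WT mRNA (4 called), DESeq2 gave 7, no batch term (no replicate block) 0 and leaving out mRNA batch 5 gave 2, and leaving out one library gave 0 to 6. In DKO against WT TE (4 called), DESeq2 gave 7, no batch term 0, a fit of the 2 genotypes alone 2 and no mRNA batch 5 gave 2, and leaving out one library gave 0 to 8. In FXS against WT mRNA (0 called), DESeq2 and the fit of the 2 genotypes gave 1 each, and leaving out one library 0 to 1. In FXS against WT TE (0 called), DESeq2 gave 1, and leaving out one library 0 to 1. In DKO against S6K1 mRNA (0 called), DESeq2, no filter and RLE size factors gave 1 each, and leaving out one library 0 to 2. The other comparisons of members gave 0 under every alternative run, and the interaction gave 0 in all 84. No result reversed its sign past the limit. Among named genes, 101 alternatives lost a call and 26 gained one. The causes were not tested. Footprint groups of 3 libraries, and WT libraries in only 3 of 4 footprint batches, limit what small changes can be seen.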
